A study of Mus musculus with 14 samples.

Results

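NK receptor genes encode the surface lectins and immunoglobulin-like receptors by which natural killer (NK) cells and some T cells sense their targets. The 9 genes described here, Klrd1, Klrc1, Klrc2, Klrk1, Klre1, Klrb1c, Klrg1, Ncr1 and Klra8, were taken by symbol from the 32285 genes counted. They were followed by their unique molecular identifiers (UMIs, each standing for 1 captured transcript) in NK-like cells, CD8 T cells, other T cells and the B and T cell clones of lymphoid nodules.

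The nodules came from mice with a conditional deletion of Eif3e, which encodes part of the eIF3 complex that starts translation (Eif3e fl/fl Cγ1Cre Rosa26-YFP LSL, termed cKO, on the C57BL/6J background). Cγ1Cre is expressed from the Ighg1 locus, mainly in activated B cells. Every mouse in which a tumor arose shared this genotype, so no control nodule was compared. White nodules of 7 mice each gave an RNA library of single cells and a library of rearranged receptor (V(D)J) transcripts. The B cell receptor (BCR) was profiled in mice 27 (liver, 12 months), 29 (lung, 12 months), 31 (spleen, 13 months), 33 (thymus, 16 months) and 34 (lung and thymus, 9 months), and that of T cells (TCR) in mice 30 (liver, 14 months) and 32 (spleen, 12 months). The nodule of mouse 27 is described as grown in a Rag2-/- recipient of transferred tumor cells, a host that lacks T and B cells of its own but keeps NK cells. Host cells in that nodule thus have another genotype, and the labelled 12 months cannot be taken as the age of the host. Mouse and organ cannot be told apart, and each mouse is 1 replicate.

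Klrd1 encodes CD94, which pairs with the NKG2 proteins. CD94 with NKG2A (Klrc1) is an inhibitory receptor and CD94 with NKG2C (Klrc2) an activating one, and both recognise Qa-1, the product of H2-T23. NKG2D (Klrk1) is an activating receptor for stress-induced ligands such as those of the Raet1 and Ulbp1 genes and signals through the adaptors DAP10 (Hcst) and DAP12 (Tyrobp). NK1.1 (Klrb1c) and NKp46 (Ncr1) are activating receptors used to identify NK cells in C57BL/6 mice, Klrg1 is an inhibitory receptor for cadherins that marks late effector lymphocytes, Klre1 is a lectin-like receptor of NK cells, and Klra8 encodes the activating receptor Ly49H. Activated CD8 T cells can acquire several of these receptors.

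On the RefSeq annotation of GRCm38.p6, 8 of the 9 genes lie on chromosome 6 and Ncr1 lies on chromosome 7 (4337715 to 4345184). Klre1, Klrd1, Klrk1, Klrc2 and Klrc1 are neighbours between 129559365 and 129682852, whereas Klrb1c (128778485 to 128788641), Klra8 (130115226 to 130129898) and Klrg1 (122270596 to 122282833) lie apart from them. Members of the Klra, Klrb1 and Klrc families are near-identical over parts of their length, so reads could be split between relatives, and values of single family members carry that uncertainty. RefSeq start-site windows were at hand for 7 of the 9 genes (none for Klrd1 and Klrg1). Windows of Klrc1 and Klrk1, of the CD8 T cell group of genes, and of Klrb1c, which had the most UMIs, are shown for comparison. Each runs 300 bases along the strand of the gene, 250 before the start site and 50 after it, and capitals mark matches to any of 4 short motifs searched on both strands.
Klrc1, chr6:129678924-129679223, minus strand: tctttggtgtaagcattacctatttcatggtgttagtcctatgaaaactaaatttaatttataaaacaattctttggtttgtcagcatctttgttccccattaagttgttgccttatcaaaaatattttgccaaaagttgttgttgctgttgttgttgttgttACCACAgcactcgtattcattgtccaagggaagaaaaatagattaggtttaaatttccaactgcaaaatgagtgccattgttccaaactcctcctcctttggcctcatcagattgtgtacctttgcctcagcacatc
Klrk1, chr6:129623815-129624114, minus strand: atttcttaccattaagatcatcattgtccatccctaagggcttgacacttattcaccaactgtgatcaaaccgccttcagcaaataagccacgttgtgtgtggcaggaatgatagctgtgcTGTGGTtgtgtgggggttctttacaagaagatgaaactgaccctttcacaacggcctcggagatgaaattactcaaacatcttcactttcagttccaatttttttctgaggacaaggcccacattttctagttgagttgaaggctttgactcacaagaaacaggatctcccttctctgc
Klrb1c, chr6:128788592-128788891, minus strand: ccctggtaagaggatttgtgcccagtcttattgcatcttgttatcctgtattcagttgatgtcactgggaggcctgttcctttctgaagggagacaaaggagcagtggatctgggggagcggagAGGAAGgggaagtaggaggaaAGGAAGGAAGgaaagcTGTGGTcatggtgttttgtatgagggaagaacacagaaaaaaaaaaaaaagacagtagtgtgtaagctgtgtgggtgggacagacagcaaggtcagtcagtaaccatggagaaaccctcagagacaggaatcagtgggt
The Runx motif (TGTGGT or its reverse ACCACA) was found in windows of 6 of 7 members, against 18.92% of 27025 genes. The Ets motif (AGGAAG or CTTCCT) was found in 2 of 7, against 38.42% of genes, and 2 of its 3 matches in Klrb1c overlap each other. The E-box (CAGGTG or CACCTG) was found in 1 of 7 (22.56% of genes) and the T-box core (GGTGTG or CACACC) in 0 of 7 (21.35%). A match is a run of letters and was not examined as a binding site.

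Of 77442 deposited cells, 75503 passed the limits on UMIs, genes and mitochondrial UMIs. Libraries held 19254544 to 122550206 UMIs, with a median of 1364 (mouse 30) to 5319 (mouse 33) UMIs per cell, and 704 to 1266 of the barcodes of each library also occurred in another library. Cell classes were gated by UMIs of marker genes that were not members. CD8 T cells carried Cd3 and Cd8a or Cd8b1 UMIs (2364 cells, 70 to 1211 per mouse) and CD4 T cells carried Cd3 and Cd4 UMIs (1759 cells, 71 to 768 per mouse), both outside the clones as counted here. The 71 CD4 T cells of mouse 32 may include some of 20 Cd4-bearing cells that share the TCR beta sequence of its clone. Clone cells were identified by their receptor sequences, giving 8579 B clone cells in the 5 BCR mice and 6975 T clone cells in the 2 TCR mice. Levels are given as CPM, that is UMIs scaled to 1000000 UMIs of the cells summed, with 95% exact Poisson intervals that cover counting error only. These are measures of transcript share in the summed cells, and fewer carrying cells and less RNA per cell were told apart only where shares of cells are also given.

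The members fell into separate patterns over the classes. T cells gated by Cd3 held 88.2% of 2356 Klrd1 UMIs, 88.8% of 2880 Klrc1 UMIs, 84.5% of 453 Klrc2 UMIs, 86.2% of 449 Klre1 UMIs and 78.7% of 1699 Klrk1 UMIs. In contrast, T cells held 4.77% of the 6035 Klrb1c UMIs and 21.8% of the 3266 Klrg1 UMIs, and B clone cells held 64.5% and 51.7% of them. These shares rested on mouse 31. Without it, a choice made after the values were seen, T cells held 37.45% and 65.8%, and B clone cells 19.75% and 9.35%, of the remaining 729 Klrb1c and 1027 Klrg1 UMIs. Such shares also depend on how many UMIs a class holds over all genes. B clones held 104654362 UMIs in all (48564762 of them in mouse 31), against 12156420 in CD8 T cells. A share alone thus does not show that a class is rich in a gene, and the CPM values below are scaled for this. Ncr1 (10 UMIs in 8 cells) and Klra8 (81 UMIs in 35 cells) were close to undetected in all 7 nodules. The plot of mean levels by class shows the same division of the genes.

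**Figure D1:**
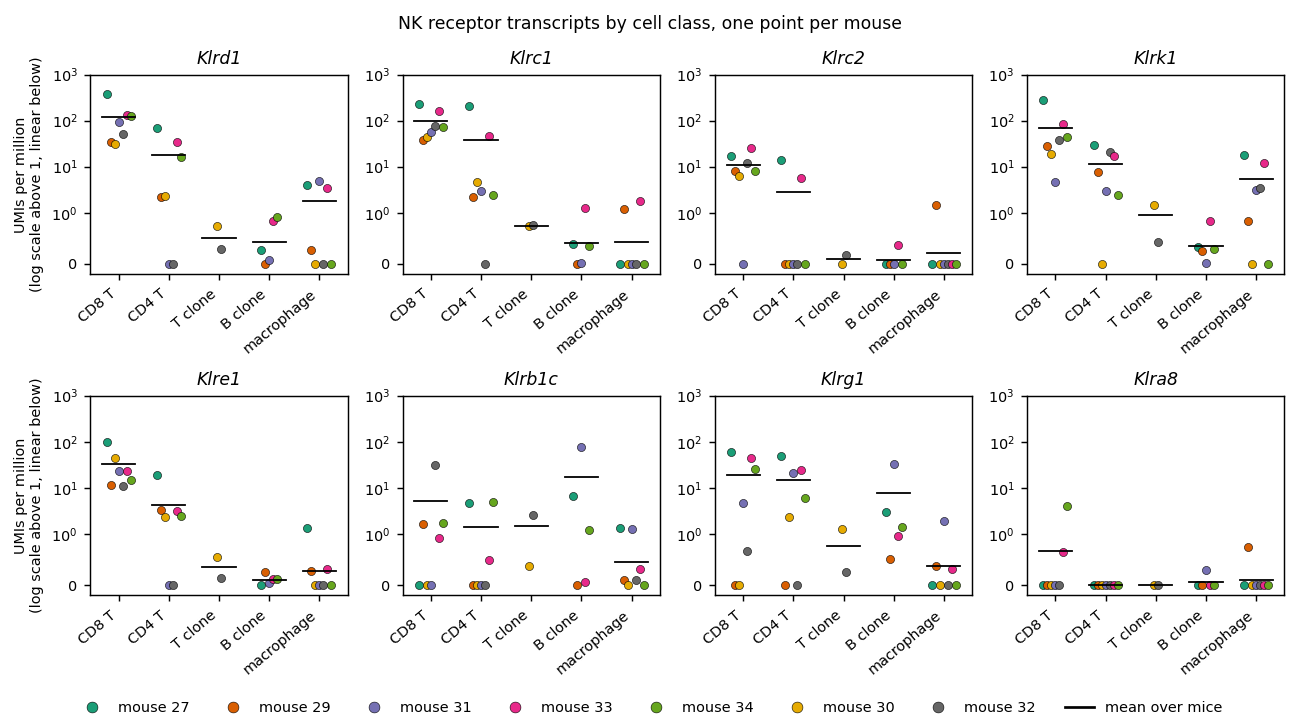
Level of 8 members (CPM, log axis above 1 and linear below) in CD8 T cells, CD4 T cells, T clones, B clones and macrophages, with 1 point per mouse and a line at the mean over mice. Klrd1, Klrc1 and Klrk1 lie highest in CD8 T cells, whereas Klrb1c and Klrg1 reach 77.2 and 32.8 in the B clone of mouse 31.

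NK cells, the cells best known for these receptors, were almost absent from the nodules. A gate that asked for 2 of 7 NK genes with Tyrobp or Fcer1g, and for no T cell, B cell or myeloid markers, found 21 NK-like cells (0.0278% of all cells) in 6 mice. Of 13 NK markers, 8 were present in at least 10% of these cells and S1pr5 was at 0. The gate itself uses markers of this list, so their presence is no independent check. CD8 T cells had the same 8 of 13 with S1pr5 at 0, and a higher sum over the list (3452 against 1224 CPM). The γδ T cell list summed to 501 CPM in the NK-like cells, with Trdc at 0. The 21 cells held 10 Klrb1c, 7 Klrc1, 7 Klrk1, 4 Klrc2, 4 Ncr1, 3 Klrd1, 3 Klra8, 1 Klrg1 and 0 Klre1 UMIs. Mouse 32 contributed 11 of them at a median of 18007 UMIs, and in these no member had a UMI, which allows up to 15.6 CPM (3 counts) for any one of them and goes against the NK name for these cells. Because no mouse reached 20 NK-like cells, no comparison of NK cells with CD8 T cells or between mice could be made.

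Ncr1, the receptor with the narrowest known range, had 0 UMIs in CD8 T cells, CD4 T cells and the clones. A count of 0 in 2364 CD8 T cells allows up to 0.247 CPM, and in 6975 T clone cells up to 0.0905 CPM, each the level of 3 counts. Of the 8 cells with an Ncr1 UMI, which came from 6 mice, 7 held no Cd3 UMI. Klra8 was likewise found in few cells, with 12 UMIs in 3 CD8 T cells of mice 33 and 34, 14 UMIs in 13 B clone cells of mouse 31 and 0 UMIs in CD4 T cells and T clones.

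CD8 T cells carried Klrd1, Klrc1 and Klrk1 UMIs in every nodule, although Klrk1 rested on 1 UMI in mouse 31. Klrd1 in CD8 T cells was lowest in mouse 30 (31.03 CPM), had a median of 93.2 CPM and was highest in mouse 27 (382 CPM). In CD4 T cells of the same nodules it ran from 0 through a median of 2.36 to 67.5 CPM, and the CD8 value was the higher one in 7 of 7 mice although the ranges overlapped. Klrd1 was present in 4.29% (mouse 30) to 47.9% (mouse 27) of CD8 T cells, against 0 to 1.11% of B clone cells, which are deeper (median of 11088 UMIs against 3757) and serve as a measure of stray transcripts. When the 2279 of 2364 CD8 T cells with at least 1000 UMIs were thinned to 1000, the Klrd1 share of CD8 T cells was 3.17% to 29.8%.

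Klrc1, the NKG2A subunit, had a lowest value of 37.9, a median of 71.8 and a highest value of 233 CPM in CD8 T cells. In CD4 T cells it was 0 to 4.73 CPM in 5 mice, 46.7 CPM in mouse 33 and 205 CPM in mouse 27, so the latter nodule alone had nearly as much Klrc1 in its CD4 T cells as in its CD8 T cells. Klrk1, which encodes NKG2D, ran from 4.66 (mouse 31) through a median of 38.1 to 275 CPM (mouse 27) in CD8 T cells and from 0 through a median of 7.62 to 30.3 CPM in CD4 T cells. For both genes the CD8 value exceeded the CD4 value within each of the 7 nodules, which for Klrk1 rested on 1 UMI in each class in mouse 31 and on 3 UMIs of 1 CD8 T cell against 0 in mouse 30.

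Over the 7 mice, with UMIs summed per mouse and class, the mouse as a block and edgeR's quasi-likelihood test over 6094 genes, 3 of the 9 members passed the filter on low counts. Klrd1 (log2 fold change 2.71, SE 0.27, adjusted p = 2.703e-05), Klrk1 (2.56, SE 0.27, adjusted p = 5.505e-05) and Klrc1 (2.05, SE 0.39, adjusted p = 0.007204) were higher in CD8 than in CD4 T cells by that edgeR test, corresponding to 6.53-, 5.90- and 4.15-fold. Over the alternatives these log2 fold changes ran from 2.58 to 3.95 for Klrd1, 2.36 to 3.43 for Klrk1 and 1.46 to 4.45 for Klrc1. Among all genes tested, 1.54% were called higher and 2.28% lower in CD8 T cells (3.82% in either direction), and the median log2 fold change was 0.01. In an edgeR fit without the mouse as a block, none of the 3 was called (adjusted p = 0.2734 for Klrd1, 0.2741 for Klrk1 and 0.9995 for Klrc1).

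The other members were too sparse for that filter and were compared by an exact paired permutation test of log2(CPM + 10) over the 7 mice, two-sided, whose smallest possible p is 0.0156. The p-values are unadjusted for the 9 members. Klre1 had a CD8 median of 23.1 CPM (10.7 to 100.8) against a CD4 median of 2.46 CPM (0 to 18.6), and was higher in CD8 T cells of 7 of 7 mice (mean difference 1.41 ± 0.53 SD on this log2 scale, exact p = 0.0156). Klrc2 had a CD8 median of 8.23 CPM (0 to 25.5) and was above 0 in CD4 T cells of mice 27 and 33 alone (14.0 and 5.77 CPM), with a mean difference of 0.70 ± 0.45 SD and an exact p of 0.0312.

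Klrg1 differed less between the classes. In CD8 T cells it was at 0 in mice 29 and 30, below 5 CPM in mice 31 and 32 and at 25.8, 44.3 and 59.1 CPM in mice 34, 33 and 27. In CD4 T cells it ran from 0 to 48.9 CPM, with 2 mice in which the CD4 value was the higher (exact paired permutation p = 0.719). With no filter on low counts, edgeR called it higher in CD8 T cells (log2 fold change 0.88, adjusted p = 0.04848). Klrb1c was at or below 1.72 CPM in CD8 T cells of 6 mice and reached 31.4 CPM in mouse 32 (exact permutation p = 0.812 against CD4 T cells over the 7 mice). The plot of paired levels shows these within-nodule differences.

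**Figure D2:**
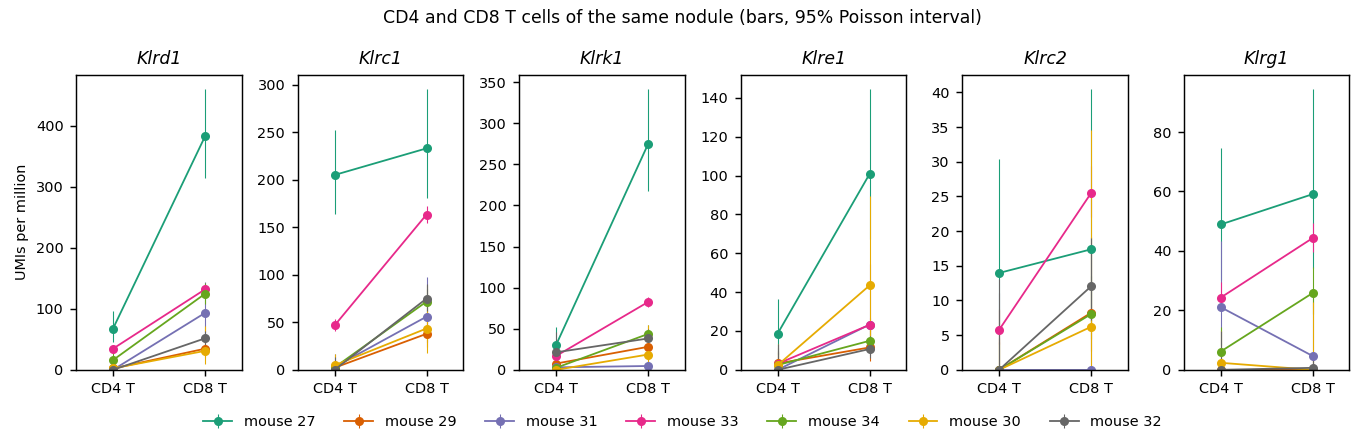
Level of 6 members (CPM, linear axis from 0) in CD4 and CD8 T cells of the same nodule, with a line for each of the 7 mice and 95% Poisson intervals as bars. For Klrd1, Klrc1 and Klrk1 all 7 lines rise from CD4 to CD8, whereas lines for Klrg1 run both ways.

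CD8 and CD4 T cells also differed in markers beyond the members. The summed NK marker list (13 genes such as Nkg7, Prf1 and Gzma) was at 1244 to 4203 CPM in CD8 and 366 to 3076 CPM in CD4 T cells, and the γδ T cell list at 71.8 to 124 against 8.71 to 53.6 CPM. Median UMIs per cell were 1594 to 4817 in CD8 and 1747 to 3908 in CD4 T cells. The part of these differences in the member values was not tested.

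Of 56 other NK receptor, adaptor and ligand genes measured, 25 could be tested between CD8 and CD4 T cells, and 4 were called higher and 0 lower by the same edgeR test, beside 1.54% of all genes called higher and 2.28% lower. Over the alternatives 0 to 11 of these genes were called. The 0 came when the mouse was not a block, where 5 of all genes were called. The 11 came with classes from clusters, where 2026 of all genes were called, against 233 in the main fit. The genes that follow are the 4 called in the main fit. They were Slamf7, a self-ligand receptor of NK cells (log2 fold change 1.24, SE 0.24, adjusted p = 0.00721), Hcst, the DAP10 adaptor of NKG2D (0.76, SE 0.13, adjusted p = 0.00422), Cd96, a nectin-family receptor (0.79, SE 0.18, adjusted p = 0.02305), and Crtam, which binds a nectin-like molecule (1.38, SE 0.34, adjusted p = 0.03141). Hcst stood at 323 to 674 CPM in CD8 and 209 to 475 CPM in CD4 T cells. The other NKG2D adaptor, Tyrobp, stood at 0 to 100.8 CPM in CD8 T cells, with 0 UMIs in mice 30 and 31.

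In CD8 T cells pooled over the mice, Klrd1 was found more often in cells with Klrc1, Klrk1 or Klre1 than in cells without. It was found in 51.8% of 629 cells with Klrc1 and 23.5% of those without, in 68.7% of 396 cells with Klrk1 and 23.5% of those without, and in 74.2% of 178 cells with Klre1 and 27.5% of those without. Cells with a member were deeper (median of 5124 against 3275 UMIs for Klrc1), the nodules differed in both depth and share, and after thinning to 1000 UMIs the shares were 18.5% against 10.9%, 27.2% against 10.6% and 38.3% against 10.95%. In mouse 27 the order for Klrc1 was the opposite, with Klrd1 in 39.4% of cells with Klrc1 and 51.2% of those without, and in mouse 33, which held most of these cells, the thinned shares were 15.9% against 12.5%. For Klrg1 the order turned with thinning, with Klrd1 in 50.6% of cells with Klrg1 and 28.9% of those without, but 7.89% and 11.7% thinned. Klrc2 was found in 22.7% of cells with Klrc1 and 1.44% of those without (4.94% and 1.23% thinned), a pair of genes for which shared reads cannot be told apart from shared expression.

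The nodules differed widely in how many CD8 T cells carried any of the 9 genes. From mouse 30 through 29, 31, 32, 34 and 33 to 27 the shares were 7.14%, 11.7%, 20.2%, 38.9%, 42.2%, 66.8% and 77.8%. At 1000 UMIs per cell mouse 27 (62.5%) and mouse 33 (32.9%) remained highest and mouse 30 (4.76%) lowest. CD4 T cells followed a like order at a lower level, with 47.1% in mouse 27, 26.3% in mouse 33 and 1.11% to 5.75% in the other 5 mice.

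T cells with neither Cd4 nor Cd8 UMIs, which are shallow and may include cells of either class, had intermediate Klrd1 levels (lowest 4.003, median 19.7, highest 85.6 CPM). Their Klrc1 was 224 CPM in mouse 27, close to the CD8 and CD4 values of that nodule, and at most 74.9 CPM elsewhere.

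The labels give a single grouping of mice, by the receptor profiled. In CD8 T cells of the 2 TCR mice against the 5 BCR mice, 6 members passed the filter and none was called, and among all 7613 genes 0% were called in either direction by edgeR. Klrd1 was 31.03 and 51.5 CPM in the TCR mice against 34.6 to 382 CPM in the BCR mice (log2 fold change -1.74, SE 0.76, adjusted p = 0.8728 by edgeR). Klrg1 was 0 and 0.669 CPM in the TCR mice against 0 to 59.1 CPM in the BCR mice (-5.37, SE 1.80, unadjusted p = 0.01267 and adjusted p = 0.8728 by edgeR). At an unadjusted p under 0.05, edgeR held 2 members and 406 genes. At the adjusted threshold DESeq2 called 0 members and 9 genes.

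The T cell clones carried almost none of the 9 genes. Their TRB junctions are shown because the junction was used, with its TRA partner, to count cells as clone. In mouse 32, 60 cells of a deposited clonotype listed with this TRB junction were left outside the clone, 20 of them with Cd4 UMIs. How many of these entered the CD4 T cell class was not examined. Capitals mark the first and last codon.
Mouse 30, TRBV1 with TRBJ2-1, 1973 cells: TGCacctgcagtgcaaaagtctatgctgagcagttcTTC
Mouse 32, TRBV26 with TRBJ2-5, 4794 cells: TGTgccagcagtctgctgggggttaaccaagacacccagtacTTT
In mouse 30 the clone (2107 cells) had 0.738 CPM of Klrd1, 0.738 of Klrc1 and 1.48 of Klrk1, and in mouse 32 (4868 cells) it had 0.289, 0.758 and 0.433 CPM. The receptor-called T cells outside the clone, a mix of CD4 and CD8 T cells, had 10.001 and 28.2 CPM of Klrd1. They had 9.00 and 64.5 CPM of Klrc1, and 9.00 and 29.1 CPM of Klrk1. The clones themselves carried Cd4 (168 to 179 CPM) and little of the CD8 genes (1.84 to 2.20 CPM). CD4 T cells of mice 30 and 32 had 2.36 and 0 CPM of Klrd1, 4.73 and 0 of Klrc1, and 0 and 21.3 of Klrk1. In these CD4 T cells 3 counts stand at 7.09 and 10.7 CPM, so a difference from the clones is poorly resolved. Any of the 9 genes was found in 1.19% and 1.52% of clone cells. Against receptor-called CD4 T cells outside the clone in these 2 mice, 0 of 9 members passed the low-count filter. Of 11397 genes, edgeR called 0.0965% higher and 0.254% lower in the clones (0.351% in either direction). Without the filter 7 members were tested and 0 called. Of the 34 other NK receptor, adaptor and ligand genes tested there, 0 were called. Over the alternatives 0 to 6 were called, with 6 when no filter was applied, where 237 of all genes were called. The clones differed in Hcst, with 31.5 CPM (mouse 30) and 349 CPM (mouse 32), the latter within the range of non-clonal T cells.

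In mouse 32, a CD8 T cell clonotype carried 76 of the 299 Klrc1 UMIs of the nodule (25.4%). It had 39 cells, of which 37 held CD8 UMIs, and was singled out after its values were seen. Among receptor-called cells outside the clone only a clonotype of 60 cells was larger, and that one is listed with the clone's own TRB junction. Its junctions were the following.
TRB, TRBV15 with TRBJ2-1, 39 cells: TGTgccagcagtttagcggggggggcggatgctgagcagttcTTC
TRA, TRAV3D-3 with TRAJ11, 23 cells: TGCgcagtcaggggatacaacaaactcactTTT
Klrc1 was found in 29 of the 39 cells (74.4%, exact Clopper-Pearson 57.9 to 87.0), at 361 CPM (284 to 451). The 112 other receptor-called CD8 T cells, of 102 clonotypes, had Klrc1 in 16 cells (14.3%, 8.39 to 22.2) and at 48.1 CPM (31.1 to 70.9), at a similar depth (median of 4548 against 4028.5 UMIs). The clonotype held 52.8% of the 144 Klrc1 UMIs of all receptor-called cells outside the clone, and all 76 of those found in the 16 clonotypes of 3 or more cells. It was also at 61.7 CPM of Klrc2 (other CD8 T cells 1.92), 80.7 CPM of Klrk1 (26.9), 47.5 CPM of Klre1 (5.77), 94.9 CPM of Klrd1 (48.1) and 66.4 CPM of Klrb1c (21.1). Intervals of Klrc1, Klrc2, Klrk1 and Klre1 did not overlap between the clonotype and the other cells, whereas those of Klrd1 (58.0 to 147 against 31.1 to 70.9) and Klrb1c (36.3 to 111 against 10.6 to 37.8) did. This is a single clone of cells in 1 nodule, so there is no replicate of the difference.

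**Figure D3:**
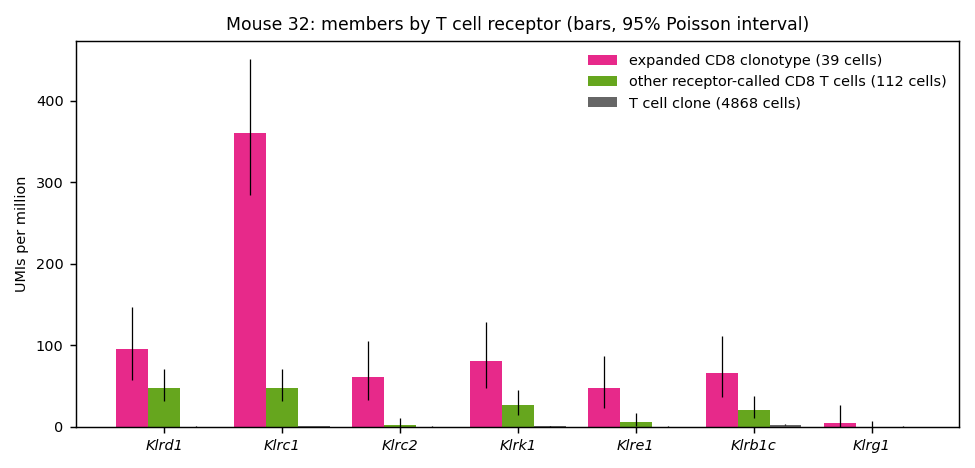
Levels of members (CPM, bars with 95% Poisson intervals) in mouse 32, in the expanded CD8 clonotype, in other receptor-called CD8 T cells and in the T cell clone. Klrc1 reaches 361 in the clonotype against 48.1 in the other CD8 T cells and 0.758 in the T cell clone.

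The expanded clonotypes of the other TCR mouse lacked these genes. In mouse 30, the 27 clonotypes of 3 or more cells outside the clone (200 cells, 7 with CD8 UMIs) held 1 Klrg1 UMI and 0 UMIs of the other 8 genes, whereas the 181 smaller clonotypes (196 cells) held 10 Klrd1 and 9 Klrc1 UMIs. Klrb1c in mouse 32 was spread more widely than Klrc1, with 55 UMIs in 36 receptor-called cells of 28 clonotypes, and the clone itself had 70 UMIs, or 2.53 CPM.

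Among the B cell clones, Klrb1c and Klrg1 were highest in that of mouse 31. The receptor that defines this clone, and that of the clone with the next highest level, are shown with their IGH junctions.
Mouse 31, IGHV1-18 with IGHJ4, 3278 cells: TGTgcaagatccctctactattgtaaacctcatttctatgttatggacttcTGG
Mouse 27, IGHV1-75 with IGHJ1, 783 cells: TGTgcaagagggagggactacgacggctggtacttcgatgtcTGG
Klrb1c stood at 77.2 CPM (74.8 to 79.7) in the mouse 31 clone, at 6.71 CPM (5.57 to 8.01) in the mouse 27 clone, and at 1.21, 0.0602 and 0 CPM in those of mice 34, 33 and 29. Klrg1 stood at 32.8 CPM (31.2 to 34.4) in mouse 31 and at 2.92, 1.44, 0.963 and 0.513 CPM in mice 27, 34, 33 and 29. For both genes the clone of mouse 31 lay apart from the other 4, which is a difference between single mice and has no replicate.

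The transcripts were spread over the clone of mouse 31. Of its 3974 cells, 1734 (43.6%) held a Klrb1c UMI, up to 12 in a cell, and 1140 (28.7%) held a Klrg1 UMI, up to 7 in a cell. At 1000 UMIs per cell the shares were 8.03% and 3.35%. In macrophages of the same nodule, which should lack Klrb1c, 2 of 345 cells (0.580%, median of 1985 UMIs) held a UMI, at 1.25 CPM. Cells of the same library with B cell markers but no called receptor had 71.3 CPM of Klrb1c and 28.8 CPM of Klrg1, whereas all remaining cells had 22.2 and 11.7 CPM. Klrg1 was not particular to the clone in this nodule. It was at 33.6 CPM (22.5 to 48.2) in T cells without Cd4 or Cd8 UMIs, 21.1 CPM (8.48 to 43.4) in CD4 and 4.66 CPM in CD8 T cells. Klrb1c was at 17.4, 0 and 0 CPM in these T cell classes. With the clone restricted to its largest deposited clonotype the levels were 75.4 and 32.8 CPM.

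Both genes were found together in 537 cells of the clone. Klrg1 was found in 30.97% of cells with Klrb1c and 26.9% of cells without, and after thinning in 2.51% and 3.42%. In the quartiles of cells by depth, Klrb1c was between 59.3 and 102 CPM and Klrg1 between 30.2 and 42.3 CPM. The plot of cell groups sets these levels beside those of the other libraries.

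**Figure D4:**
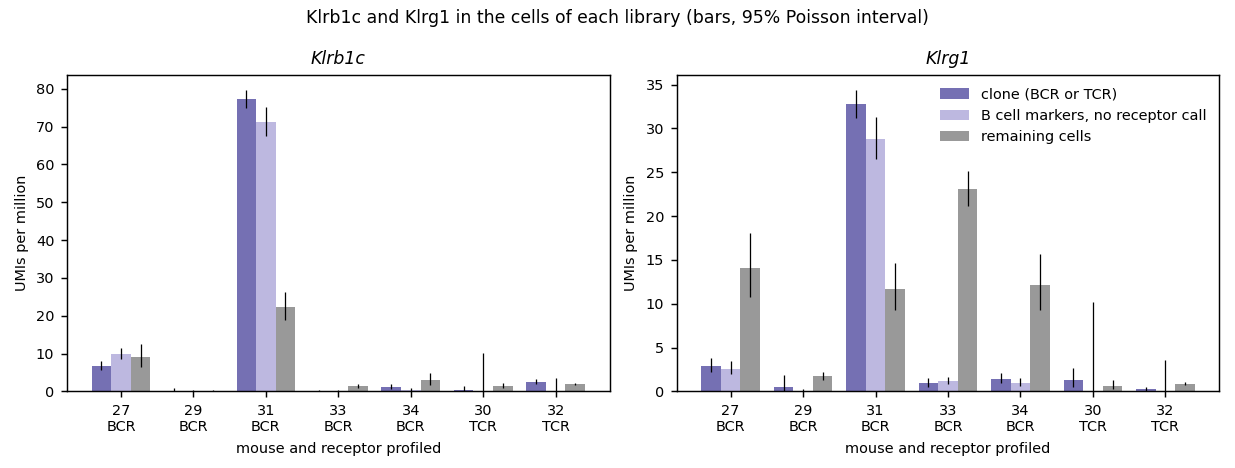
Klrb1c and Klrg1 levels (CPM, with 95% Poisson intervals) in the clone, in B-marked cells without a called receptor and in the remaining cells of each mouse. In mouse 31 the clone reaches 77.2 for Klrb1c and 32.8 for Klrg1, and B-marked cells without a called receptor reach 71.3 and 28.8.

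Family members beside Klrb1c were far below its level in the clone of mouse 31. Its relatives Klrb1b (25.1 kb away), Klrb1a (156 kb) and Klrb1 (54.2 kb) stood at 0.0824, 0.597 and 3.75 CPM. Clec2i, a lectin gene 98.9 kb away, stood at 66.2 CPM there but also reached 73.6 CPM in the mouse 27 clone and 6.03 to 13.5 CPM in the other B clones. Beside Klrg1, M6pr and Apobec1 stood at 184 and 313 CPM in the mouse 31 clone. The mouse 27 clone had 247 and 370 CPM of these genes, whereas there Klrg1 was at 2.92 CPM.

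The CD94 and NKG2 group was near 0 in all B clones. Klrd1, Klrc1 and Klrk1 reached at most 0.919, 1.26 and 0.843 CPM there, in mice 34, 33 and 33. The adaptor Hcst was highest in the B clone of mouse 31 (93.1 CPM, 90.4 to 95.8) and was 13.7 to 25.2 CPM in the other 4, whereas Tyrobp was 5.02 CPM in mouse 31 and 4.03 to 32.6 CPM in the others.

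Genes for ligands of these receptors were also measured in the clones. H2-T23, which encodes Qa-1, was at 210 and 126 CPM in the T clones and at 31.04 to 132 CPM in the B clones, beside 104 to 251 CPM in CD8 T cells. Raet1e and Ulbp1, NKG2D ligand genes, were at 20.8 to 51.0 and 13.1 to 95.4 CPM in the B clones and at 10.4 to 10.7 and 5.72 to 7.83 CPM in the T clones. Non-clonal T cells also carried both genes. Raet1e was at 31.4 to 99.0 CPM in CD8 and 17.8 to 88.3 CPM in CD4 T cells, and Ulbp1 at 10.4 to 32.4 and 7.10 to 29.8 CPM. Between CD8 and CD4 T cells 6 ligand genes of the list were tested by edgeR and 0 were called, beside 3.82% of all genes. The B clones were not tested against the other classes.

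The genes whose levels were most alike, by Pearson's r of log2(CPM + 10) over 45 sums of class and mouse, included members and other genes. Klrd1 was nearest to Trbv12-1 (r = 0.941), Klrc1 (0.937) and Klre1 (0.903), and Klrc1 to Trbv12-1 (0.938), Klrd1 and Klrc2 (0.915). Klrk1 was nearest to Klrd1 (0.879), and Klre1 to Klrd1 (0.903). Klrc2 was nearest to Klrc1, followed by Ret (0.870) and Gm29243 (0.862). Trbv12-1, a TCR beta segment, was found in 1.43% to 9.17% of CD8 T cells. Klrb1c and Klrg1 had no close partner of this kind, with highest values of 0.730 (Gm43154) and 0.761 (Myl12a). The sums of a mouse share a library, and no test was made.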

How the data were processed

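Single-cell RNA and V(D)J libraries of 1 nodule from each of 7 mice were used. The authors deposited raw UMI counts per gene and cell and V(D)J contig tables with UMI counts, and the submitters' processing notes name the builds GRCm38 and mm10. Whether the RNA counts come from the 5′ or the 3′ end was not settled, since the labels name a 5′ kit for V(D)J and the methods a 3′ kit for RNA.

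Cells with at least 201 UMIs, 101 genes and at most 10% mitochondrial UMIs were kept. Cell classes were gated by UMIs of marker genes other than the members, and clones by the commonest heavy or TRB junction and its light or TRA partner. Doublets were not removed in the main values. UMIs were summed per mouse and class (at least 20 cells) and tested with edgeR 4.0.16 (R 4.3.3; filterByExpr, TMM, quasi-likelihood, Benjamini-Hochberg over all genes tested, threshold 0.05). The mouse was the block, since both classes come from the same nodule. Deviations of the classes of a mouse correlated at 0.364 to 0.738, and every mouse matched itself best. Mice are the replicates. DESeq2 1.42.0, other filters, stricter gates, clusters (scanpy 1.11.5) and leaving out each mouse were alternatives. The fits were tested on data simulated at a dispersion of 0.1. For CD8 against CD4 T cells (6094 genes), 60% of 2-fold and 100% of 4-fold changes were recovered. For the T clones against CD4 T cells 8% and 65% were recovered, and for TCR against BCR mice 8% and 72%. At that dispersion most 2-fold changes would be missed in the latter 2 comparisons. Larger ones can be missed for sparse members. Klrg1, at a log2 fold change of -5.37 between TCR and BCR mice (SE 1.80), was not called (adjusted p = 0.8728 by edgeR).

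The members are those of a given list. From 60 pathway genes (56 measured), every gene past the threshold was named, up to 4 in each direction. Of the genes most alike, 3 were found for each member with at least 100 UMIs. Members and lists were chosen with earlier results of these data known. Promoter windows are from RefSeq (GRCm38.p6).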

Additional observations from a re-analysis of the deposited data

Results flagged for a closer look

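Of 25 groups of mice examined, 12 held a mouse whose gap to the nearest other mouse exceeded Dixon's critical value. Chance flags about 1 in 20 such groups, and several of these share the cells of mouse 27.

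In mouse 27, whose nodule grew in a Rag2-/- recipient, CD8 T cells had 382.4 CPM of Klrd1 (next mouse 131.8), 274.6 CPM of Klrk1 (next 82.5) and 100.8 CPM of Klre1 (next 43.44). Its CD4 T cells had 204.9 CPM of Klrc1 (next 46.65), 13.97 CPM of Klrc2 (next 5.771) and 18.63 CPM of Klre1 (next 3.265). Its T cells without Cd4 or Cd8 UMIs had 223.7 CPM of Klrc1 (next 74.88), 33.15 CPM of Klrc2 (next 12.52) and 22.1 CPM of Klre1 (next 7.079). The transfer, the organ and the mouse cannot be told apart.

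CD8 T cells of mouse 32 had 31.45 CPM of Klrb1c, against at most 1.722 CPM in the other 6 mice. The B clone of mouse 31 had 77.24 CPM of Klrb1c (next 6.711) and 32.78 CPM of Klrg1 (next 2.916).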

How the results depend on the processing

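Of the member fold changes recomputed under the alternatives, 109 kept their direction and their side of the threshold, 3 fell below it (those without the replicate block, below) and 4 changed sign. The latter are log2 fold changes in CD8 T cells between TCR and BCR mice, none of them called in any setting. Klrc2 (-0.37 in the main analysis) was 0.85 with classes from clusters, and Klre1 (-0.64) was 0.66 with clusters, 0.16 without mouse 27 and 0.34 without mouse 32, over a range from -1.57 (without mouse 30) when each mouse was left out. The cause was not tested. Between CD8 and CD4 T cells, the 3 members called in the main analysis became 0 with no replicate block for the mouse, 6 with no filter on low counts (Klrd1, Klrc1, Klrk1, Klrc2, Klre1 and Klrg1) and 1 with stricter gates, where fewer cells and genes were tested. Of all genes, 5, 687 and 33 were called in these settings, against 233 in the main analysis. Leaving out each mouse in turn gave 2 or 3 called members (Klrk1 fell under the low-count filter without mouse 29, 32, 33 or 34), and leaving out mice 27 and 33 together (added after seeing the data) gave 2. Of all genes, 120 (without mouse 34) to 329 (without mouse 27) were called with 1 mouse left out, and 371 without mice 27 and 33. The number of all genes called ranged from 5 to 2026 in that comparison and from 0 to 237 for the T clones, over the alternatives. Mean levels of members over the B clones moved by less than the SD between mice in 54 of 54 recomputed values. Most of these left out 1 of the 5 clones, which cannot move a mean by that SD, so the count is no check of stability. The means of Klrb1c and Klrg1 rested on mouse 31 (17.04 and 7.72 CPM over 5 clones, 1.995 and 1.46 CPM without it).

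Comparisons of NK-like cells with CD8 T cells and between mice were not run, since no mouse held 20 such cells. Another gate (added after seeing the data) asked for 3 of 7 NK genes but not for Tyrobp or Fcer1g, and gave 29 cells. It is not a looser form of the first gate, since mouse 32 gave 3 cells under it and 11 under the first. For the T clones no mouse could be left out, since 1 mouse leaves no residual degrees of freedom, and stricter gates left too few cells. Depth limits the sparse members, and Klra8 and Ncr1 passed the low-count filter in no comparison of the main analysis.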

Other observations

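Relatives and neighbours of the members differed between the T clones. The clone of mouse 30 held 80 Klrb1b UMIs (14.8 CPM) and 56 Klrb1a UMIs (10.3 CPM), against 4 and 65 UMIs (0.144 and 2.35 CPM) in the larger clone of mouse 32. Clec2g, a lectin gene beside Klrb1c, reached 76.1 CPM in the mouse 32 clone and was at or below 0.922 CPM in the other 6 clones. Macrophages held Klrk1 in 5 of 7 nodules, at 17.7 CPM in mouse 27, 12.3 CPM in mouse 33 and at most 3.42 CPM in the other 5. These are values of single clones or nodules, and no difference was tested.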
